A study of Mus musculus with 2 samples.

Results

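The Nrf2 antioxidant genes described here are 10 genes named by symbol: the transcription factor gene Nfe2l2, its repressor Keap1, and 8 antioxidant enzymes and transporters, Nqo1, Gclc, Gclm, Txnrd1, Srxn1, Prdx1, Slc7a11 and Gsr. They were found through their Entrez identifiers and are 10 of the 15605 genes listed in at least 1 of 2 RNA-seq libraries. One library came from peritoneal macrophages, phagocytes that live in the abdominal cavity, of Lgmn-/- mice, which lack the lysosomal cysteine protease legumain. The other library came from the same cells of wild type mice. Both groups were C57BL/6 mice aged 6 to 8 weeks, and both sets of macrophages were harvested after 4 days of co-culture with the mouse mammary carcinoma line EO771. Which exons of Lgmn were deleted, the sex of the mice, how many mice gave cells and whether a membrane kept the cell types apart are not stated in the sources used here. With 1 library per genotype differences between the genotypes could not be checked against replicates, and p-values are not given.

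The factor Nrf2, encoded by Nfe2l2, is held in the cytoplasm by Keap1, which presents it to a Cul3 ubiquitin ligase for degradation. Oxidants and electrophiles modify cysteines of Keap1, and Nrf2 then accumulates, pairs with small Maf proteins and binds antioxidant response elements beside genes for glutathione, thioredoxin and quinone metabolism. Because this control acts mainly on the protein, the transcript level of Nfe2l2 is not a measure of Nrf2 activity. In macrophages the pathway is known for limiting oxidative damage during phagocytosis and for restraining inflammatory cytokine genes.

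In these libraries the genes for glutathione synthesis and reduction, Gclc, Gclm and Gsr, and the thioredoxin reductase gene Txnrd1 had more RNA in the Lgmn-/- library, by 1.37-fold to 1.58-fold. Keap1 was 1.33-fold higher and Nfe2l2 1.36-fold lower. Prdx1, Srxn1 and Slc7a11 lay within 1.15-fold of the wild type level, and Nqo1 was close to the detection limit in both libraries. None of the 9 members with enough counts to be read reached 2-fold in either direction, except Slc7a11 once the ratio was adjusted for its long transcript.

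The core letters of the element that Nrf2 binds were looked for in the promoters of the members. The core of the antioxidant response element was searched as TGACNNNGC on both strands of RefSeq promoter windows in GRCm38.p6. Each runs from 250 bases before to 50 bases after the start used for that window. That start can differ from the end of the gene position given further on. On the strand of the gene a match to the opposite strand reads GCNNNGTCA. Only these fixed letters were searched, so a site with another base at a fixed place is not counted. The table held windows for 8 of the 10 genes, and 5 of these 8 had a match, against 14.0% of the 27025 genes with a window. Txnrd1 has 3 windows, of which the second holds the match. A match describes the letters only, and its absence says only that they are not in this window. The sites are shown because the members differ in their values although several share this core. Each is printed 5′ to 3′ on the gene's strand, with the match in capitals.

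Nfe2l2 (chr2:75704870-75704913, minus strand, match starting 240 bases before the start): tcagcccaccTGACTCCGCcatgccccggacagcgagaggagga
Gclm (chr3:122245398-122245456, plus strand, 134 bases before the start): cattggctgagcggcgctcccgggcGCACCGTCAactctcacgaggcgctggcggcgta
Txnrd1 (chr10:82859089-82859147, plus strand, 92 bases before the start): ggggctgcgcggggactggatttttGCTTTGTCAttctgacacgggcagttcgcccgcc
Prdx1 (chr4:116685441-116685499, plus strand, 133 bases before the start): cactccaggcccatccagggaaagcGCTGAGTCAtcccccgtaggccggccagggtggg
Srxn1 (chr2:152105542-152105570, plus strand, 28 bases after the start): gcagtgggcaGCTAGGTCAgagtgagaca

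Of these 5 genes, Gclm and Txnrd1 were higher in the Lgmn-/- library, Nfe2l2 was lower, and Prdx1 and Srxn1 lay near the wild type level. The windows of Keap1, Nqo1 and Slc7a11 held no match. The Slc7a11 window, 50443564 to 50443863, lies inside the gene's span of 50364936 to 50499087.

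The depth was alike, at 11740202 estimated counts over 14756 genes in the Lgmn-/- library and 11885784 over 14681 genes in the wild type library. Lgmn itself had 426 estimated counts in the Lgmn-/- library, against 23550 in the wild type library. Ratios are Lgmn-/- over wild type after scaling of the counts with TMM factors (trimmed mean of M-values, which align the bulk of the genes), and brackets give 95% exact intervals that cover counting error only, not variation between mice or library preparations. Levels per length are FPKM as deposited, which the authors scaled to transcript length and to the mapped fragments of each library. A gene was read against a threshold of 2-fold if 1 of the libraries held 50 or more estimated counts for it, and 9498 genes qualified. Across them the log2 ratio followed transcript length, with a Spearman rho of 0.61 across genes, so a length-adjusted value is given beside each member. In bulk RNA, fewer cells that express a gene and less RNA per cell cannot be told apart.

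All 12 macrophage markers were detected in both libraries, with summed FPKM of 20062 in the Lgmn-/- library and 20984 in the wild type library, so both libraries carried the labelled cell type. In the Lgmn-/- library 2 of these 12 passed 2-fold upward and 0 downward, 8 lay above a ratio of 1, and their median log2 ratio was 0.44 (0.51 adjusted for length), beside 0.41 for the members. Of 12 fibroblast and smooth muscle markers, 10 could be read and all 10 were at least 2-fold lower in the Lgmn-/- library, with summed FPKM of 25.6 in the Lgmn-/- library and 132 in the wild type library. None of these 12 was at 0 in either library. Of 13 T and NK cell markers 8 could be read, 3 of them passed 2-fold upward and 0 downward, with summed FPKM of 305 in Lgmn-/- and 161 in wild type and Trac not listed in either. Of 12 epithelial and mesothelial markers 1 could be read, Krt19, which was lower, and the sums were 1.53 in Lgmn-/- and 6.11 in wild type. Krt5, Krt14 and Cldn4 were not listed in either library, nor were Msln and Upk3b in the Lgmn-/- library. The part of these other cells in the values of the 10 genes was not tested.

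**Figure D1:**
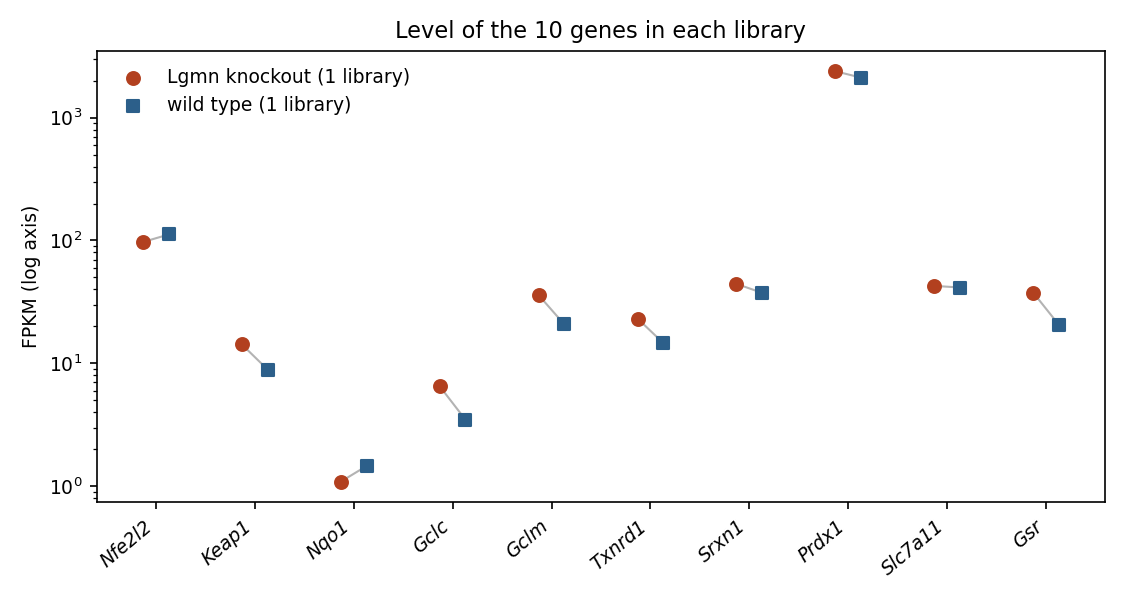
FPKM of each of the 10 genes (log axis) in the Lgmn knockout library (circles) and the wild type library (squares), 1 library each, with a line joining the values of a gene. The genes span from 1.09 FPKM for Nqo1 to 2385 FPKM for Prdx1 in the knockout library. Of the 10, 8 have the higher FPKM there, as do 6711 of the 9498 genes with at least 50 counts.

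The regulators had opposite ratios. Gene positions are given in GRCm38.p6. Nfe2l2 (Entrez 18024, chromosome 2, 75675513 to 75704663) had 2853 estimated counts and 97.2 FPKM in the Lgmn-/- library, against 3321 counts and 112 FPKM in the wild type library. It was 1.36-fold lower (1.29 to 1.43), a log2 ratio of -0.44, and -0.38 after length adjustment. Among the 9498 genes read, 13.4% had a lower log2 ratio. Keap1 (Entrez 50868, chromosome 9, 21229730 to 21239332), the substrate adaptor of the ligase that degrades Nrf2, had 545 counts and 14.2 FPKM in the Lgmn-/- library, against 351 counts and 8.90 FPKM in the wild type library. It was 1.33-fold higher (1.16 to 1.53), a log2 ratio of 0.41, and 0.33 after length adjustment. Per length, Nfe2l2 RNA exceeded Keap1 RNA in both libraries, by 6.83-fold in Lgmn-/- and by 12.6-fold in wild type. The Lgmn-/- library had both the lower Nfe2l2 level and the higher Keap1 level.

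Glutathione synthesis starts with glutamate-cysteine ligase, made of the catalytic subunit Gclc and the modifier subunit Gclm. Gclc (Entrez 14629, chromosome 9, 77754535 to 77794489) had 267 counts and 6.50 FPKM in the Lgmn-/- library, against 145 counts and 3.48 FPKM in the wild type library. This gave the largest ratio among the members, 1.58-fold higher (1.29 to 1.95), a log2 ratio of 0.66, and 0.53 after length adjustment. Gclm (Entrez 14630, chromosome 3, 122245487 to 122267215) had 881 counts and 35.9 FPKM in Lgmn-/-, against 516 counts and 20.7 FPKM in wild type, and was 1.46-fold higher (1.31 to 1.64). Its log2 ratio was 0.55, or 0.68 adjusted for length. Both subunits of the enzyme were thus higher by similar folds, and their intervals overlap. The modifier subunit was the more abundant of them per length, with a Gclm over Gclc FPKM ratio of 5.52 in Lgmn-/- and 5.96 in wild type.

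Gsr (Entrez 14782, chromosome 8, 33653238 to 33698162), which encodes glutathione reductase and returns oxidised glutathione to its reduced form with NADPH, had 1205 counts and 37.6 FPKM in Lgmn-/-, against 667 counts and 20.5 FPKM in wild type. It was 1.55-fold higher (1.41 to 1.71), a log2 ratio of 0.63 (0.65 adjusted for length). Of the genes read, 85.2% had a lower ratio than Gsr, and 86.1% a lower ratio than Gclc. After length adjustment these shares were 93.7% for Gsr and 90.5% for Gclc, and 94.2% for Gclm. The 3 glutathione enzymes therefore stood in the upper part of the ratios of all genes and short of 2-fold.

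Slc7a11 encodes xCT, the transporter subunit that imports cystine, from which cells take the cysteine for glutathione. Slc7a11 (Entrez 26570, chromosome 3, 50364936 to 50499087) had 4735 counts and 42.7 FPKM in Lgmn-/-, against 4657 counts and 41.4 FPKM in wild type. The level was nearly the same in both libraries, 1.15-fold lower in Lgmn-/- (1.10 to 1.19) with TMM scaling, a log2 ratio of -0.20, and 0.04 when scaled by library totals. Its transcript of 9227 bases is the longest among the members. Genes of that length had a log2 ratio of 0.96 by the trend, so the length-adjusted value of Slc7a11 was -1.15, below -1, and 1.33% of the genes read had a lower adjusted value. Slc7a11 is also controlled by the stress factor Atf4 in textbook accounts. Slc3a2, which encodes the heavy chain that carries xCT to the membrane, had 4532 counts in Lgmn-/-, against 5348 in wild type, a log2 ratio of -0.46 (-0.42 adjusted for length).

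Thioredoxin is kept reduced by thioredoxin reductase 1, encoded by Txnrd1 (Entrez 50493, chromosome 10, 82833951 to 82897724), a selenoprotein. Txnrd1 had 945 counts and 23.2 FPKM in Lgmn-/-, against 594 counts and 14.6 FPKM in wild type. It was 1.37-fold higher (1.23 to 1.52), a log2 ratio of 0.45 (0.33 adjusted for length). Txnrd1 was less abundant than Gsr per length in both libraries, with an FPKM ratio of Txnrd1 over Gsr of 0.62 in Lgmn-/- and 0.71 in wild type.

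Prdx1 encodes peroxiredoxin 1, which reduces hydrogen peroxide with electrons from thioredoxin, and Srxn1 encodes sulfiredoxin, which repairs overoxidised peroxiredoxins. Prdx1 (Entrez 18477, chromosome 4, 116685599 to 116700000) was the most abundant member, with 39702 counts and 2385 FPKM in Lgmn-/-, against 35724 counts and 2116 FPKM in wild type. It ranked 45th by FPKM among the genes listed in the Lgmn-/- library and 65th in the wild type library. With TMM scaling it was 1.05-fold lower (1.03 to 1.06), a log2 ratio of -0.07, but 0.17 after length adjustment, 0.17 by library totals and 0.17 by deposited FPKM, so its direction depended on the scaling. Srxn1 (Entrez 76650, chromosome 2, 152105524 to 152111376) had 1492 counts and 44.3 FPKM in Lgmn-/-, against 1280 counts and 37.5 FPKM in wild type. Its scaled count was 1382 in both libraries, with an interval of the ratio from 0.93 to 1.08, and its log2 ratio was -0.01 after length adjustment and 0.24 by library totals. Prdx1 exceeded Srxn1 per length by 53.8-fold in Lgmn-/- and by 56.4-fold in wild type.

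Nqo1 (Entrez 18104, chromosome 8, 107388225 to 107403205), the quinone reductase often used as a readout of Nrf2 in other tissues, had 20 counts and 1.09 FPKM in Lgmn-/-, against 27 counts and 1.46 FPKM in wild type. These counts are too few for the 50-count minimum, and the interval of the ratio runs from 0.34 to 1.18, so no difference was detectable at this depth. Nqo1 ranked 9896th by FPKM in the Lgmn-/- library and 8569th in the wild type library, below the other 9 genes in both.

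**Figure D2:**
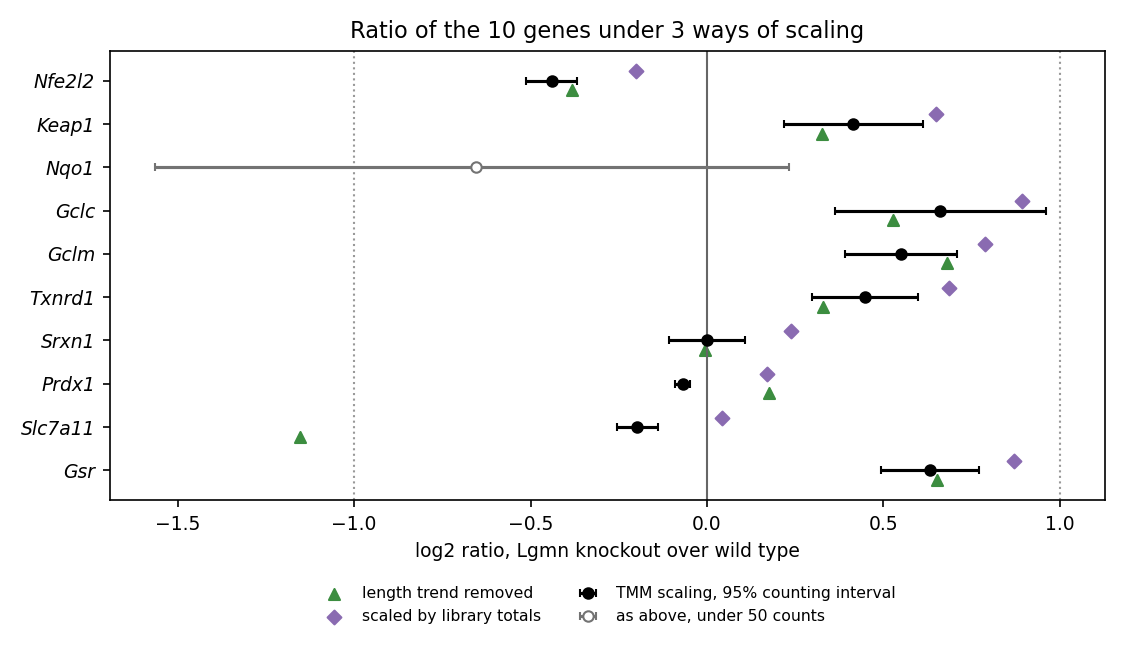
Log2 ratio of Lgmn knockout over wild type for the 10 genes: black points show TMM scaling with 95% intervals of counting error, triangles the value with the length trend removed and diamonds scaling by library totals; dotted lines mark 2-fold. Gclc, Gclm, Gsr, Txnrd1 and Keap1 lie above 0 under all 3 scalings and Nfe2l2 below 0, while the length-adjusted value of Slc7a11, at -1.15, is the only one past 2-fold; Nqo1 (open symbol) had under 50 counts.

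Of the 9 members read, 0 were higher and 0 lower by 2-fold or more, where 6.06% of all genes read were higher and 1.74% lower by that much (576 and 165 genes, or 1036 and 107 by library totals). Their median log2 ratio was 0.41, beside -0.00035 over all genes read. After length adjustment 0 members were higher and 1, Slc7a11, was lower by 2-fold or more, where 2.14% of all genes were higher and 1.90% lower, and the members' median was 0.33. The counting interval lay above a ratio of 1 for 5 members and below it for 3, where it did so for 29.6% and 30.7% of all genes, so an interval that leaves out 1 was common among all genes. Scaling by library totals moved the median of all genes to 0.24 and that of the members to 0.65. The median of the members then exceeded that of all genes by a like amount, and 8 of the 9 members lay above 0, Nfe2l2 being the exception, as did 6713 of the 9498 genes read.

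**Figure D3:**
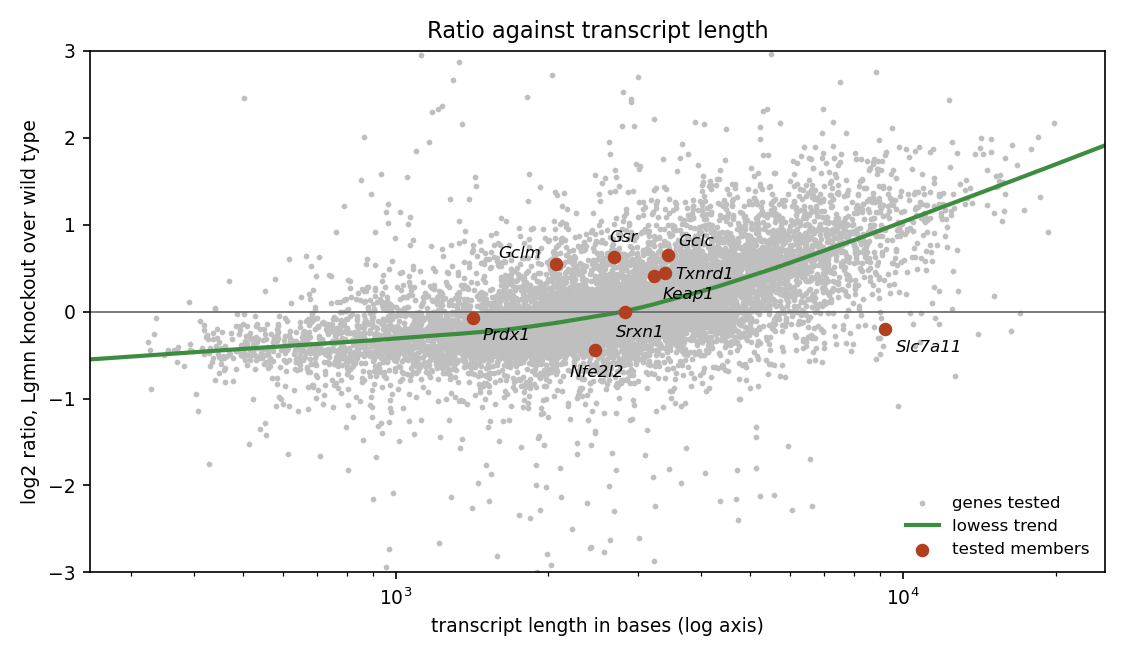
Log2 ratio of Lgmn knockout over wild type against transcript length (log axis) for the genes with at least 50 counts (grey), with the lowess trend (line) and the 9 members read; 18 genes lie outside the plotted range. Gclm, Gsr, Gclc, Txnrd1 and Keap1 lie above the trend, Nfe2l2 and Slc7a11 below it, and Slc7a11 is farthest from it.

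The sources used here do not state whether counting used strand, and some members overlap other genes in GENCODE vM21. Keap1 overlaps the antisense gene Gm16754, Gclm overlaps the opposite-strand transcript Gm17494 and the pseudogene Gm6061, Txnrd1 overlaps Eid3 on its own strand and Gm38560 on the other, and Slc7a11 overlaps the antisense gene Gm37854 and others. None of these neighbours was found by name among the genes listed in either library, and a listing under another name was not checked. Reads from them cannot be told apart from those of the members.

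Other genes of the pathway were read in 10 lists that together held 153 genes with enough counts. Of these, 7 were higher and 7 lower by 2-fold or more (10 and 4 by library totals, 4 and 4 adjusted for length). Over all 9498 genes read the shares were 6.06% higher and 1.74% lower, or 2.14% and 1.90% adjusted for length. The count of each list below is to be read beside these shares. The median log2 ratio of the 153 genes was -0.18, and 0.061 by library totals, where that of all genes was 0.24. Among 18 regulators and partners of Nrf2, 14 could be read, 2 were at least 2-fold higher and 0 lower, at a median of 0.34, which was 0.58 by library totals and 0.14 adjusted for length. Below a ratio of 1 lay 3 of the 14, or 6 after adjustment, and 1 gene, Crebbp, was then past 2-fold. The coactivator genes Crebbp and Ep300 were 6.77-fold (3.37 to 15.4) and 2.59-fold (2.12 to 3.20) higher, from 71 counts in Lgmn-/- against 9 in wild type for Crebbp, and 381 in Lgmn-/- against 126 in wild type for Ep300. Both have long transcripts, and their log2 ratios of 2.64 and 1.37 were 1.88 and 0.46 after length adjustment. Bach1, a repressor that competes with Nrf2 for its sites, had a log2 ratio of 0.63 (0.09 adjusted for length), and Mafg, a small Maf partner, 0.47 and 0.67. Sqstm1, the most abundant gene of this list and an autophagy receptor that binds Keap1, had 213 FPKM in Lgmn-/- and 201 FPKM in wild type. Its log2 ratio was -0.16, or -0.02 adjusted for length and 0.08 by library totals. Bach1 and Mafg here, and Slc3a2, Gss, Txn1, Pgd and Hmox1, were chosen for their roles after their values were seen.

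Most other genes of glutathione metabolism lay below a ratio of 1, as did 4751 of the 9498 genes read. Of 17 further synthesis and peroxidase genes read, 0 were higher and 2 lower by 2-fold or more, with 14 of the 17 below a ratio of 1 and a median log2 ratio of -0.41. The 2 lower genes were Gpx7 and Gpx8, peroxidases of the endoplasmic reticulum, with 53 and 23 counts in Lgmn-/-, against 94 and 57 in wild type, and log2 ratios of -1.03 and -1.49. After length adjustment Gpx8 stayed past 2-fold at -1.18 and Gpx7 was at -0.76. Gpx1, the most abundant, had 1441 FPKM in Lgmn-/- and 1476 FPKM in wild type, a log2 ratio of -0.28 (0.02 adjusted for length). Gss, the enzyme after glutamate-cysteine ligase, had a log2 ratio of -0.41 from 106 counts in Lgmn-/- against 121 in wild type. Of 12 glutathione transferases read, 0 passed 2-fold in either direction, and 11 lay below a ratio of 1, with a median of -0.47. Gstm1 had 358 FPKM in Lgmn-/- and 596 FPKM in wild type and was 1.97-fold lower (1.90 to 2.04), and Gstm4 had a log2 ratio of -0.78. The Gstm genes are similar copies among which RSEM divides reads by an estimate. Length adjustment took the medians to -0.17 for the synthesis and peroxidase genes and to -0.16 for the transferases. Below 0 then lay 11 of the 17 and 8 of the 12, beside 4856 of the 9498 genes read. By library totals 12 of the 17 and 8 of the 12 still lay below a ratio of 1, beside 2785 of the 9498 genes read. Their medians by library totals were -0.17 and -0.23. Of the 17, 1 was then higher and 1 lower by 2-fold or more.

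Thioredoxins and other peroxiredoxins were read in 18 genes, of which 0 passed 2-fold in either direction, at a median of -0.29 (-0.14 adjusted for length, -0.05 by library totals). Txn1, the substrate of Txnrd1, had 1015 FPKM in Lgmn-/- and 1163 FPKM in wild type, a log2 ratio of -0.44. Prdx5, the most abundant gene of this list, had 1634 FPKM in Lgmn-/- and 1165 FPKM in wild type, a log2 ratio of 0.25 (0.62 adjusted for length). The genes with the largest ratios were Nxn, which encodes nucleoredoxin, at -0.82, and Sesn2, a stress-induced sestrin, at 0.64. Quinone, carbonyl and haem enzymes gave 21 genes read and 0 past 2-fold in either direction, at a median of -0.16 that was 0.076 by library totals and 0.01 adjusted for length. Hmox1, the haem oxygenase and another known Nrf2 target, had 949 FPKM in Lgmn-/- and 1011 FPKM in wild type, a log2 ratio of -0.33. Cbr1, a carbonyl reductase, and Ephx1, an epoxide hydrolase, had log2 ratios of -0.69 and -0.59, both -0.40 after length adjustment. That of Akr1a1, the most abundant, was -0.17, but 0.08 adjusted for length and 0.07 by library totals.

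A list of NADPH-generating enzymes and genes of their pathways held 17 genes read. Of these, 2 were at least 2-fold higher and 0 lower, at a median of 0.09 (0.33 by library totals, 0.15 adjusted for length). The malic enzyme gene Me1 was 2.43-fold higher (1.40 to 4.42), from 51 counts in Lgmn-/- against 18 in wild type, and stayed past 2-fold after length adjustment at a log2 ratio of 1.15. Nnt, the mitochondrial transhydrogenase, was 2.19-fold higher (1.66 to 2.89), with 191 counts in Lgmn-/- against 75 in wild type, and its log2 ratio was 1.12, or 0.85 adjusted for length. Pgd, an enzyme of the pentose phosphate pathway, had 138 FPKM in Lgmn-/- and 79.3 FPKM in wild type, a log2 ratio of 0.55, and Taldo1, the most abundant of the list, one of 0.08.

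The wider list of reported Nrf2 targets held genes past 2-fold on both sides, 2 higher and 2 lower of 20 read, with a median of -0.15 that was 0.09 by library totals and -0.06 adjusted for length. Slc40a1, the iron exporter ferroportin, was 2.73-fold higher (1.97 to 3.83), with 159 counts in Lgmn-/- against 50 in wild type. Il1b, a cytokine gene that Nrf2 is reported to restrain, was 4.50-fold higher (3.52 to 5.82). Mt2, a metallothionein, and Gdf15, a stress cytokine, were 2.69-fold lower (2.48 to 2.91) and 2.66-fold lower (2.28 to 3.10). After length adjustment with a lowess span of 0.3 all 4 were past 2-fold, but Mt2 was at -1.01, and with a span of 0.6 its log2 ratio was -0.999 and short of 2-fold. Ftl1, the ferritin light chain and the most abundant gene of this list, had 28836 FPKM in Lgmn-/- and 33437 FPKM in wild type. Its log2 ratio was -0.45 (-0.14 adjusted for length).

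Of 19 genes of the amino acid and Atf4 response read, the pathway that shares Slc7a11, 0 were higher and 3 lower by 2-fold or more, at a median of -0.41 (-0.33 adjusted for length, -0.17 by library totals). Adjusted for length, or by library totals, 1 of the 19 was lower by 2-fold or more. Asns, asparagine synthetase, was 4.99-fold lower (3.29 to 7.83). Psat1, a serine synthesis enzyme, and Ddit4, an inhibitor of mTORC1, had log2 ratios of -1.05 and -1.09, which were -0.94 and -0.88 after length adjustment. Eif4ebp1, the most abundant of them, had a log2 ratio of -0.30, which was 0.02 adjusted for length and -0.06 by library totals. Both Slc7a11 and its partner Slc3a2 lay below 0 with TMM scaling, by less than 2-fold without length adjustment, and Slc7a11 was at 0.04 by library totals.

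**Figure D4:**
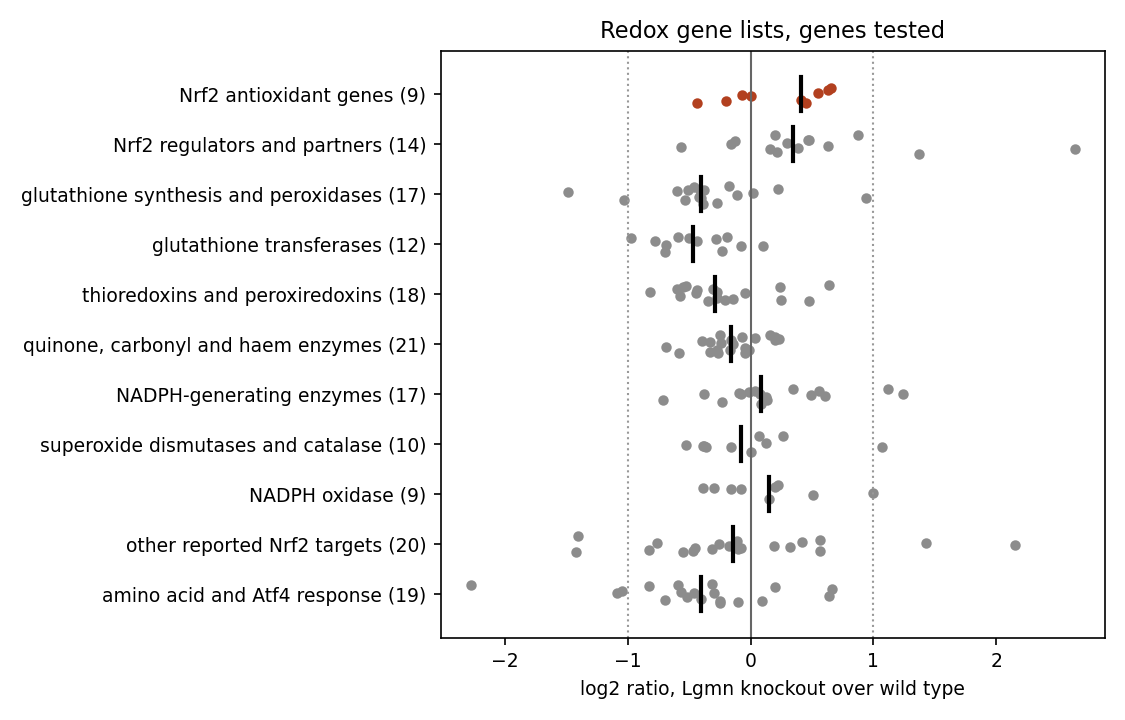
Log2 ratio of Lgmn knockout over wild type for the genes read in each list (number in brackets), 1 point per gene with the median as a bar; the 10 Nrf2 antioxidant genes come first, with 9 read, and dotted lines mark 2-fold. The members' median of 0.41 lies near that of the regulators and partners, at 0.34. It lies above those of the glutathione, transferase and thioredoxin lists, at -0.41, -0.47 and -0.29. Adjusted for length, which is not plotted, the members' median is 0.33 and that of the regulators 0.14. The glutathione, transferase and thioredoxin medians are then -0.17, -0.16 and -0.14.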

How the data were processed

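Per the labels' protocols, total RNA of co-cultured peritoneal macrophages was read on BGISEQ-500, with 1 library per genotype. The deposited tables give, for each Entrez gene, an estimated count and an FPKM, per the file headers. The deposited estimated counts carry no scaling between libraries, and the authors scaled FPKM to transcript length and mapped fragments. The submitters' processing notes name HISAT2, Bowtie2, RSEM and mm10, with no role or version for any. The deposited transcript length in the same tables was the other value used.

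Identifiers were matched to symbols and GRCm38.p6 positions with RefSeq, for 15561 of 15605 identifiers. A gene missing from a file was taken as 0. Counts were rounded and scaled with TMM factors of edgeR 4.0.16 in R 4.3.3 (1.09 for Lgmn-/-, 0.92 for wild type), and log2 ratios used a pseudocount of 1. Folds in the text are without pseudocount. Intervals are 95% Clopper-Pearson intervals of the Lgmn-/- share of both counts, and cover counting error alone. PCR copies without molecular identifiers may be counted more than once, which these intervals do not allow for. The length trend was a lowess curve with a span of 0.3 (statsmodels 0.14.6). The calculation was tested on simulated data.

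The members, lists and alternatives were chosen with earlier results of these data known. The shares of genes with a lower ratio, the shares of genes whose interval leaves out 1, the list values by library totals and the use of unrounded counts for the minimum were added after values were seen. Named genes are every member and Lgmn and, of each of 10 other lists, the 2 with the largest ratios, those past 2-fold and the most abundant. Cell type markers filled 8 lists; those of dendritic, B, neutrophil and mast, and endothelial cells are in the closing section. Alternatives were DESeq2 1.42.0 size factors, library totals, median centring, deposited FPKM with 0.1 added, minimums of 10, 200 or none, pseudocounts of 0.5 and 5, lowess spans of 0.3 and 0.6, and thresholds of 1.5-fold and 4-fold.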

Additional observations from a re-analysis of the deposited data

How the results depend on the processing

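No paired analysis was possible because each genotype has 1 library, and for the same reason no replicate could be left out. Over the scaling, minimum, pseudocount and length settings, Gclc, Gclm, Gsr, Txnrd1 and Keap1 kept log2 ratios above 0, with ranges of 0.52 to 0.89, 0.55 to 0.79, 0.63 to 0.87, 0.32 to 0.69 and 0.31 to 0.67, and Nfe2l2 stayed between -0.44 and -0.20. Prdx1 (-0.07 to 0.17), Srxn1 (-0.02 to 0.24) and Slc7a11 (-1.15 to 0.04) had values on both sides of 0. A minimum only selects genes and cannot change a gene's ratio, and another scaling of the counts shifts all genes by nearly the same amount. Members at least 2-fold lower numbered 1 with the length trend removed at either span, and those past the threshold of 1.5-fold numbered 2 higher and 0 lower. The members' median was 0.65 by library totals, 0.66 by deposited FPKM, and 0.21 with a minimum of 10 counts or none, when Nqo1 entered. Genes at least 2-fold higher and lower over all genes numbered 576 and 165, 1036 and 107 by library totals, 936 and 102 by FPKM, 922 and 436 with a minimum of 10, 274 and 67 with 200, and 1459 and 1531 with none. With the length trend removed they were 203 and 180 at a span of 0.3, and 197 and 180 at 0.6. Thresholds of 1.5-fold and 4-fold gave 1563 and 607, and 40 and 45. In the other pathway lists, 7 higher and 7 lower became 10 and 4 by totals and by FPKM, 10 and 11 with a minimum of 10, 3 and 2 with 200, 10 and 17 with none, 4 and 4 at a span of 0.3, 4 and 3 at 0.6, 14 and 23 at 1.5-fold and 2 and 1 at 4-fold, and their median of -0.18 was 0.061 by totals and 0.062 by FPKM. Apart from the smaller or larger number of genes read under another minimum, and the offset that another scaling adds, the cause was not tested. Depth left Nqo1 below the minimum of 50 counts.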

Other observations

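Genes that make and clear superoxide were read beside the 10 antioxidant genes. Cybb, the catalytic subunit of the phagocyte NADPH oxidase, had 18231 counts and 321 FPKM in the Lgmn-/- library, against 7852 counts and 136 FPKM in the wild type library, and was 1.99-fold higher (1.94 to 2.05), with a log2 ratio of 0.99 (0.63 adjusted for length). Hvcn1, the proton channel that works with the oxidase, had a log2 ratio of 0.51 (0.53 adjusted for length). Cyba, the membrane partner of Cybb and the most abundant gene of the list, had one of -0.08. This was 0.28 adjusted for length and 0.16 by library totals. Of 9 NADPH oxidase genes read, 0 passed 2-fold in either direction, at a median of 0.15 (0.21 adjusted for length, 0.39 by library totals), but the log2 ratio of Cybb was 1.23 by library totals. Of 10 genes for superoxide dismutases, catalase and methionine sulfoxide reductases, 1 was at least 2-fold higher and 0 lower, at a median of -0.08 (0.04 adjusted for length, 0.16 by library totals). This was Sod2, the mitochondrial dismutase, with 92.4 FPKM in Lgmn-/- and 37.3 FPKM in wild type, 2.10-fold higher (1.98 to 2.22), and its log2 ratio was 1.07, or 0.87 adjusted for length. Msra had a log2 ratio of -0.53, and Msrb1, the most abundant, one of 0.01.

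The ferritin chains, both reported Nrf2 targets, differed in direction with TMM scaling. Fth1, the heavy chain, chosen after its values were seen, had 27625 FPKM in Lgmn-/- and 17517 FPKM in wild type, 1.33-fold higher (1.33 to 1.34), whereas Ftl1 was 1.37-fold lower (1.36 to 1.38). By library totals the log2 ratio of Ftl1 was -0.22, and with the length trend removed it was -0.14. Nnt carries a deletion in the C57BL/6J substrain, and the labels give the strain as C57BL/6 without a substrain, so whether the 2 groups share it was not tested.

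Few markers of further cell types could be read. Of 9 dendritic cell markers 2 could be read, Clec9a at a log2 ratio of 2.21 and Fscn1 at -1.63, with summed FPKM of 4.56 in Lgmn-/- and 4.79 in wild type, and with Flt3 and Siglech not listed in either. Of 6 B cell markers 0 could be read, with sums of 2.51 and 1.40 FPKM in Lgmn-/- and wild type, and with Pax5 and Ighm not listed in either. Of 10 neutrophil and mast cell markers 1 could be read, S100a8 at 0.12, with sums of 111 FPKM in Lgmn-/- and 85.5 FPKM in wild type, and of 8 endothelial markers 2, Pecam1 at 1.27 and Kdr at 0.44, with sums of 6.65 FPKM in Lgmn-/- and 4.45 FPKM in wild type, and with Tie1 and Emcn not listed in either.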
